A study of Mus musculus with 3 samples.

Results

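Aldh1a1, Aldh1a3, Aldh2 and Aldh3a1 encode aldehyde dehydrogenases, enzymes that oxidise aldehydes to carboxylic acids. The 4 genes were taken by symbol from the 32287 features of a single-cell matrix of mouse PC cells, and all 4 were detected. PC cells come from esophageal organoids of Trp53 floxed/floxed mice, in which Trp53 was deleted with Ad-Cre-EGFP, an adenovirus carrying Cre recombinase and EGFP, and Cdkn2a was then knocked out with CRISPR/Cas9. Trp53 encodes the tumour suppressor p53, and Cdkn2a encodes inhibitors of the cell cycle. The cells also expressed Cas9 at all times, carried a transfected barcode library, went through 3 passages and were sorted as live RFP-positive cells. All cells share these alterations, so the matrix holds no unaltered control, and the related line that lacks Notch1 was not analysed here. The labels give about 20000 cells recovered after the sort. The labels give the tissue as Esophageal Cancer, while the cells are 1 engineered organoid-derived line grown as 1 culture.

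In vertebrates, cytosolic enzymes of the ALDH1A family turn retinaldehyde into retinoic acid, the ligand of retinoic acid receptors. Their activity toward fluorescent substrates is widely used to sort stem and precursor cells of epithelia. ALDH2 is the mitochondrial enzyme that clears acetaldehyde made from ethanol, and it is much studied in the esophagus because carriers of weak forms who drink have a raised risk of squamous carcinoma. ALDH3A1 oxidises aldehydes from lipid peroxidation and is abundant in the cornea and in some squamous epithelia. The marker genes used to group cells here are Ltf, which encodes the secreted iron-binding protein lactoferrin, Lcn2, which encodes the secreted siderophore-binding protein lipocalin-2, Krt5, a keratin of basal squamous cells, and Vim, the intermediate filament of mesenchymal cells.

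The genes lie on 4 chromosomes of GRCm38 (GENCODE M21 annotation). Aldh1a1 spans chr19:20492715-20643465 on the plus strand, Aldh1a3 chr7:66390890-66427517 on the minus strand, Aldh2 chr5:121566027-121593824 on the minus strand and Aldh3a1 chr11:61207537-61218421 on the plus strand. All 4 are protein-coding. The following stretches of 51 coding bases are shown because they hold the part the family shares, the cysteine that attacks the aldehyde; its codon is in capitals, and codons are counted from the start codon. They were read 5′ to 3′ from the GENCODE M21 transcripts, and Aldh1a7, the close relative of Aldh1a1, is added for comparison.
Aldh1a1 (codon 303): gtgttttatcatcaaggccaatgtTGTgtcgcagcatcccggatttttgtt
Aldh1a7 (codon 303): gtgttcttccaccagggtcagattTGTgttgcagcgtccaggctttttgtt
Aldh1a3 (codon 314): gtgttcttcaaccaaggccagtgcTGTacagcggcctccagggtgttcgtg
Aldh2 (codon 321): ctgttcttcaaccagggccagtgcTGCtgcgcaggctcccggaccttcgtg
Aldh3a1 (codon 244): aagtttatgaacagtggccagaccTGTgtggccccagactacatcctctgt

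Over the whole aligned coding sequence the 4 genes were 59.4% to 68.6% identical to each other. Aldh1a1 and Aldh1a7 were 91.6% identical, and Aldh1a7 lies 49487 bases from the end of Aldh1a1 on the other strand. UMIs (unique molecules counted by their molecular identifier) come from transcript 3′ ends, so the last 500 bases of each transcript matter for telling the genes apart. None of the 470 runs of 31 bases in these ends was found in a transcript of another gene, for any of the 4. On the opposite strand they are overlapped by 3 annotated features, C730002L08Rik and Gm6684 in Aldh1a1 and Gm42879 in Aldh2. Of these, C730002L08Rik was a feature of the matrix, and whether counting used the strand is not given in the sources used here.

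After filtering, 14925 of 18116 barcodes remained, with 45443280 UMIs and a median of 2955 UMIs and 1499 genes per cell. The labels describe 3 libraries from these cells, for gene expression, barcodes and scars, and neither the labels nor the file header tie the matrix to one of them. The matrix was therefore treated as 1 pooled sample. Cells are not replicates, so no test was made; intervals are exact 95% Poisson intervals for levels and exact (Clopper-Pearson) binomial intervals for shares. These intervals, and the limit that 3 UMIs or 3 cells set where the count was 0, cover counting error only. A level is given in CPM, the summed UMIs of a gene for every 1000000 UMIs of a class, and is compared for 1 gene between classes, not between genes.

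Aldh2 had 3054 UMIs in 2669 cells, or 67.2 CPM (64.8 to 69.6). Aldh3a1 had 1941 UMIs in 1204 cells, or 42.7 CPM (40.8 to 44.7). Aldh1a3 had 1305 UMIs in 776 cells, or 28.7 CPM (27.2 to 30.3). Aldh1a1 had the fewest, 373 UMIs in 320 cells, or 8.21 CPM (7.40 to 9.08). At this depth most cells showed none of the enzymes: 10772 cells (72.2%) had no UMI of any of the 4, 3477 had UMIs of 1 enzyme and 16 had UMIs of all 4.

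Cells were grouped into classes by at least 2 UMIs of a marker. Ltf-high cells had at least 2 Ltf UMIs and fewer than 2 of Vim, whatever their Krt5. Krt5-high cells had at least 2 Krt5 UMIs with fewer than 2 of Ltf and of Vim, and Vim-high cells had at least 2 Vim UMIs with fewer than 2 of Krt5 and of Ltf. Cells with Vim and another marker at 2 or more were called mixed, and the rest marker-low. This gave 436 Ltf-high cells (2.92% of cells), 6447 Krt5-high cells (43.2%), 1450 Vim-high cells (9.72%), 69 mixed cells and 6523 marker-low cells (43.7%). Median depths were 2922, 3284, 3404, 4768 and 2432 UMIs in that order.

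Sums of simple epithelial, basal and mesenchymal markers followed the class markers, and the secretory sum did not. The 8 simple epithelial markers (Epcam, Cdh1, Krt8 and others) summed to 4072 CPM in Ltf-high and 2642 CPM in Krt5-high cells against 176 CPM in Vim-high cells. The 12 mesenchymal markers (Fn1, Col1a1, Zeb1 and others) summed to 5317 CPM in Vim-high cells against 225 and 352 CPM in Ltf-high and Krt5-high cells. Basal markers summed to 4391 CPM in Krt5-high, 2955 in Ltf-high and 525 in Vim-high cells. Secretory epithelial markers summed to 8889 CPM in Ltf-high cells, below the 12259.9 CPM of Krt5-high and 9383 CPM of marker-low cells. Vim-high cells were at 1541 CPM for these. Immune markers summed to at most 13.1 CPM and endothelial markers to at most 9.05 CPM in any class. Of the 8 immune markers, 6 were at 0 in Ltf-high cells, among them Ptprc, Adgre1 and Tyrobp. The others were Cd68, with 12 UMIs (9.01 against 6.25 CPM in Krt5-high cells), and Itgam. Itgam had 3 UMIs in Ltf-high cells, at 2.25 against 0.137 CPM in Krt5-high cells, a ratio of 16.4 (2.20 to 123).

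Aldh1a1, Aldh1a3 and Aldh3a1 were highest in Ltf-high cells, lower in Krt5-high cells and lowest in Vim-high cells, whereas Aldh2 was at nearly the same level in Krt5-high, marker-low and Vim-high cells. A call required 3 things of a pair of classes: a ratio of 2 or more between their CPM values, 10 CPM or more in the higher class, and separate intervals. By this rule 3 of the 4 enzymes were higher in Ltf-high than in Krt5-high cells, where 3.22% of the 12812 genes with at least 20 UMIs were called in that direction and 2.35% in the other. The same 3 enzymes were called higher in Ltf-high than in Vim-high cells (9.55% of 11132 genes, and 10.5% in the other direction) and higher in Krt5-high than in Vim-high cells (7.32% of 13320 genes, and 7.72% in the other). Aldh2 was called in none of the 3 comparisons.

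**Figure D1:**
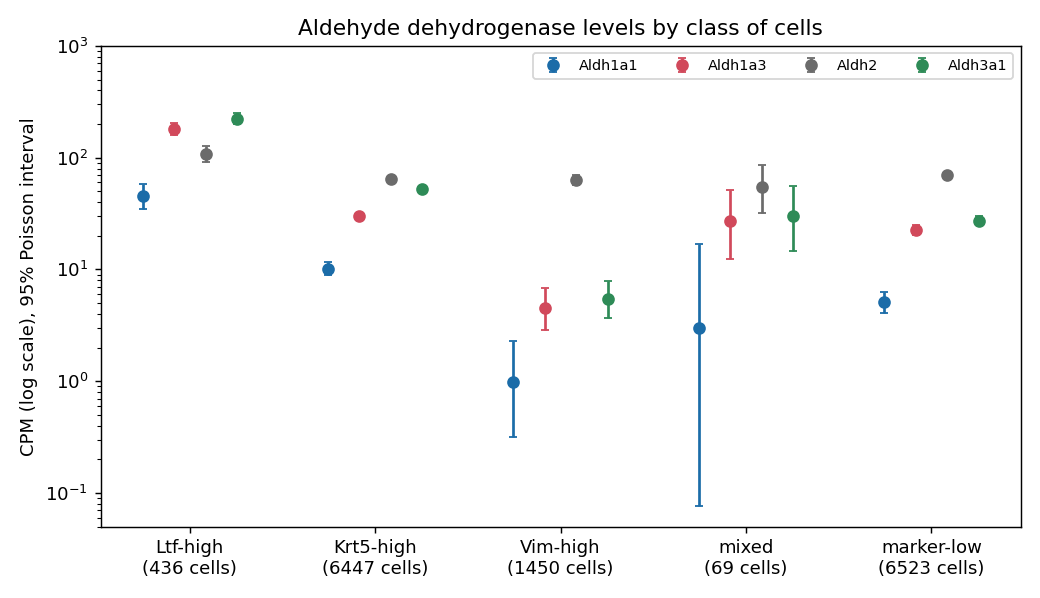
Level of each enzyme in the 5 classes of cells. The y axis is CPM on a log scale, points are summed levels, bars are 95% Poisson intervals, and cell numbers stand under the class names. Aldh1a1, Aldh1a3 and Aldh3a1 go from 45.0, 182 and 224 CPM in Ltf-high cells to 0.980, 4.51 and 5.49 CPM in Vim-high cells, while Aldh2 lies between 54.3 and 108 CPM in every class.

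Aldh1a1, a cytosolic retinaldehyde dehydrogenase, was at 45.0 CPM (34.4 to 58.0) in Ltf-high cells. It was at 10.1 CPM (8.85 to 11.6) in Krt5-high cells and at 5.07 CPM (4.05 to 6.27) in marker-low cells. Vim-high cells had 5 Aldh1a1 UMIs, a level of 0.980 CPM (0.318 to 2.29). None of these 4 intervals overlapped. The ratio of Ltf-high to Krt5-high cells was 4.44 (3.28 to 5.93), and that of Krt5-high to Vim-high cells 10.3 (4.37 to 32.2). The latter call stands close to the minimum of 10 CPM and was lost in 4 of 11 alternatives, with ratios of 6.33 at a class threshold of 1 UMI, 8.92 with the other markers at 0, 9.18 in cells without Lcn2 and 9.98 without the richest cell. Aldh1a1 was also called higher in Krt5-high than in marker-low cells, at a ratio of 2.0 (1.55 to 2.60), which just met the threshold. Only 9 of 13810 genes (0.0652%) were called in that direction, in a contrast that Krt5 itself defines. The 3 other enzymes were not called there; Aldh3a1 had a ratio of 1.91 (1.71 to 2.14).

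Aldh1a3, the other retinaldehyde dehydrogenase among the 4, was at 182 CPM (159 to 206) in Ltf-high cells and 29.8 CPM (27.5 to 32.1) in Krt5-high cells. The ratio of 6.10 (5.24 to 7.08) was the largest of the 4 in this comparison, and its interval lay above those of Aldh3a1 and Aldh2 and overlapped that of Aldh1a1. Marker-low cells were at 22.6 CPM (20.4 to 25.0) and Vim-high cells at 4.51 CPM (2.86 to 6.76). Krt5-high cells were 6.6-fold (4.36 to 10.5) above Vim-high cells.

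Aldh3a1 reached 224 CPM (199 to 251) in Ltf-high cells, 52.3 CPM (49.3 to 55.4) in Krt5-high cells, 27.4 CPM (24.9 to 30.0) in marker-low cells and 5.49 CPM (3.65 to 7.93) in Vim-high cells. Its ratios were 4.27 (3.75 to 4.86) for Ltf-high over Krt5-high cells and 9.54 (6.56 to 14.4) for Krt5-high over Vim-high cells. Its order over the classes was that of Aldh1a1 and Aldh1a3.

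Aldh2, the mitochondrial enzyme, was at 63.9 CPM (60.6 to 67.3) in Krt5-high cells and 63.3 CPM (56.6 to 70.6) in Vim-high cells, a ratio of 1.01 (0.893 to 1.14). Marker-low cells were at 69.8 CPM (65.8 to 73.9). Ltf-high cells were higher at 108 CPM (91.2 to 127), 1.69-fold (1.42 to 2.01) above Krt5-high cells, an interval above 1 that did not reach the threshold of 2. In the 69 mixed cells the intervals of Aldh1a3, Aldh2 and Aldh3a1 overlapped those of Krt5-high cells, at 27.1, 54.3 and 30.2 CPM, and 1 Aldh1a1 UMI was seen.

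Shares of cells followed the levels. A UMI of Aldh3a1 was seen in 36.7% of Ltf-high cells (32.2% to 41.4%), 10.6% of Krt5-high cells and 1.52% of Vim-high cells. For Aldh1a3 the shares were 27.3%, 6.24% and 1.45%, and for Aldh1a1 11.2%, 2.92% and 0.345%. Aldh2 was seen in 27.3%, 18.7% and 20.2%. When each cell was thinned to 1500 UMIs and kept its class, the Ltf-high shares were 23.4% for Aldh3a1, 16.8% for Aldh1a3, 13.7% for Aldh2 and 8.05% for Aldh1a1. The Krt5-high shares were then 5.63%, 3.11%, 9.28% and 1.5%, and thinning left out 26 Ltf-high and 243 Krt5-high cells.

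The few UMIs in Vim-high cells were set against genes those cells should lack, since free RNA reaches all droplets. As a percentage of the Krt5-high level, Vim-high cells showed 3.03% to 5.88% for 7 of the 8 simple epithelial markers (4.01% for Epcam) and 28.6% for Krt18, which was seen in 18.4% of Vim-high cells. Of 3 basal genes, Trp63 stood at 3.83% (2.62% to 5.42%), Col17a1 at 3.86% (3.07% to 4.80%) and Krt14 at 11.2% (10.5% to 12.0%). Aldh1a1 stood at 9.67% (3.11% to 22.9%), Aldh3a1 at 10.5% (6.94% to 15.2%) and Aldh1a3 at 15.1% (9.53% to 22.9%). The intervals of Aldh1a3 and Aldh3a1 lay above the values of the 7 markers, of Trp63 and of Col17a1, and that of Aldh1a1 reached them. Whether these few UMIs came from free RNA or from the Vim-high cells was not tested. Aldh2, at 99.1% (87.5% to 112%), lay far above all of these genes. In the other direction, Col1a1, Col3a1, Dcn, Col5a1 and Aebp1 in Krt5-high cells stood at 0.543% to 1.12% of their Vim-high level.

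Over UMI bins of single markers, all 3 class-dependent enzymes were higher in cells with Ltf, while Aldh1a1 differed less along Lcn2 than Aldh1a3 and Aldh3a1 did. From cells with 0 Lcn2 UMIs to cells with 10 or more, Aldh1a3 went from 17.4 CPM (16.1 to 18.8) to 160.2 CPM (138 to 185) and Aldh3a1 from 29.5 CPM (27.8 to 31.3) to 188 CPM (164 to 214). Over the same bins Aldh1a1 went only from 7.02 CPM (6.21 to 7.91) to 19.9 CPM (12.8 to 29.7). Aldh2 went from 64.3 CPM (61.8 to 66.9) to 94.7 CPM (78.1 to 114), a smaller relative difference. Along Ltf, Aldh1a1 was at 6.50 CPM at 0 UMIs, 37.2 CPM (28.1 to 48.5) at 1 to 2 and 72.6 CPM (33.2 to 138) at 10 or more, the last from 9 UMIs in 45 cells. Over the same Ltf bins Aldh1a3 went from 22.8 CPM to 209.7 CPM (137 to 307). Aldh3a1 was at 34.2 CPM at 0 Ltf UMIs, 241 CPM (208 to 279) at 3 to 9 and 153 CPM (92.3 to 239) at 10 or more. Along Krt5, Aldh1a1 was at 4.0 CPM (3.02 to 5.19) at 0 UMIs and 47.2 CPM (33.2 to 65.1) at 10 or more, and Aldh3a1 at 17.7 CPM and 163 CPM (136 to 194). Aldh2 went the other way along Krt5, from 67.8 CPM (63.6 to 72.3) to 45.9 CPM (32.2 to 63.6), with intervals that just met. Cells with 10 or more Vim UMIs had no Aldh1a1 UMI, which allows up to 11.6 CPM in these 60 cells.

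**Figure D2:**
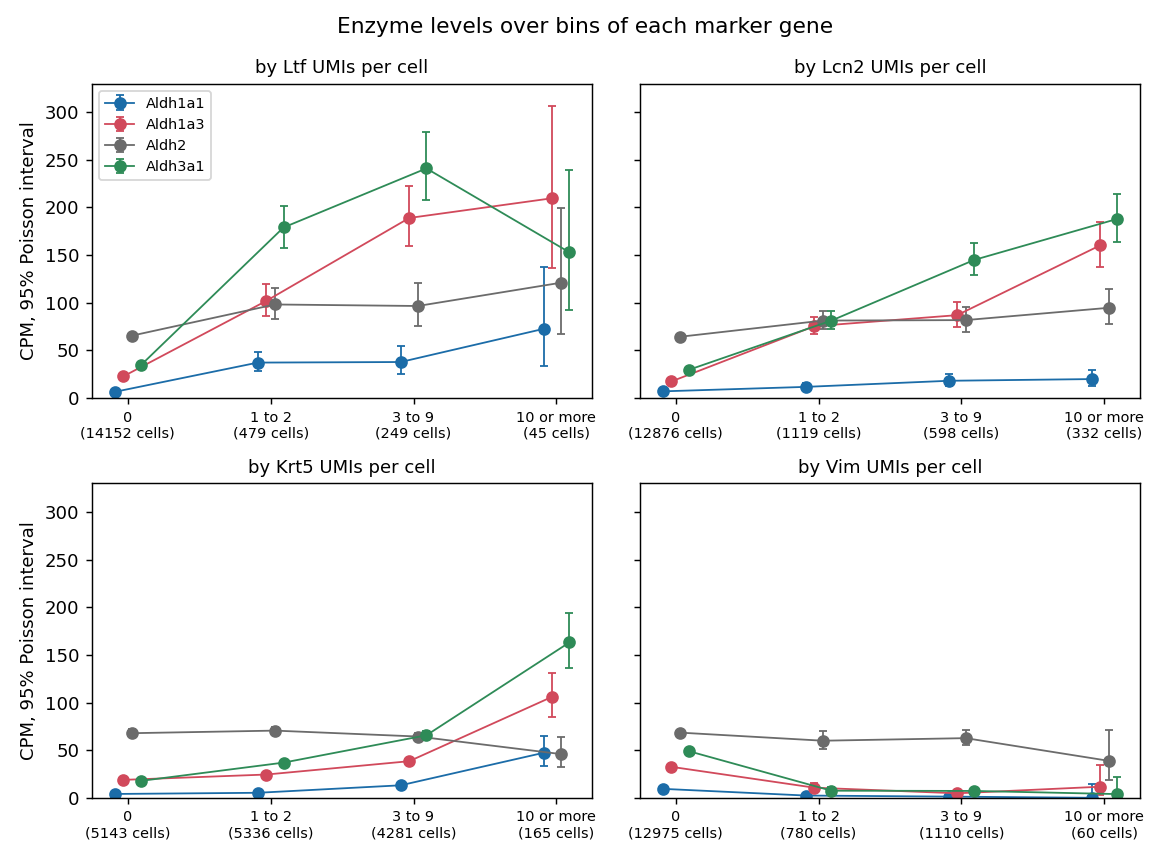
Enzyme levels over bins of Ltf, Lcn2, Krt5 and Vim UMIs per cell. The y axis is CPM, points are levels summed over the cells of a bin, bars are 95% Poisson intervals, and cell numbers stand under each bin. Along Lcn2, Aldh1a3 and Aldh3a1 reach 160.2 and 188 CPM where Aldh1a1 stays at or below 19.9 CPM, and Aldh2 stays between 45.9 and 121 CPM in the Ltf, Lcn2 and Krt5 panels.

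Ltf and Lcn2 often occur in the same cells, so the 12975 cells without a Vim UMI were split by both. Aldh1a1 was at 7.11 CPM (6.21 to 8.11) in the 10769 cells with neither marker. In the 1447 cells with Lcn2 alone it was at 9.40 CPM (6.86 to 12.6), a ratio of 1.32 (0.938 to 1.83) whose interval included 1. In the 216 cells with Ltf alone it was at 62.0 CPM (43.6 to 85.4), 8.72-fold (5.98 to 12.4) above cells with neither. Cells with both markers, 543 in number, were at 32.7 CPM (24.7 to 42.4), or 0.527 (0.342 to 0.821) of the level with Ltf alone. The level with Ltf differed with Krt5: among cells with Ltf and without Vim, Aldh1a1 was at 8.34 CPM (1.72 to 24.4) in the 140 cells without a Krt5 UMI and at 60.6 CPM (47.5 to 76.2) in the 349 cells with at least 3.

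Aldh1a3 showed another order. It was at 18.1 CPM (16.6 to 19.6) with neither marker, 76.1 CPM (68.4 to 84.3) with Lcn2 alone, 106 CPM (81.1 to 135) with Ltf alone and 151 CPM (133 to 171) with both. Lcn2 alone therefore went with a 4.20-fold (3.67 to 4.80) higher Aldh1a3 level. Of the 364 Aldh1a3 UMIs in cells with Lcn2 alone, 28, 26 and 24 lay in single cells. The interval does not cover such uneven spread over cells. Aldh3a1 was higher with each marker, from 32.3 CPM (30.3 to 34.3) with neither to 85.9 CPM (77.8 to 94.6) with Lcn2 alone, 136 CPM (108 to 169) with Ltf alone and 224 CPM (202 to 247) with both. For Aldh2 the 4 levels were 64.8, 77.3, 80.4 and 104 CPM, with 1.19-fold (1.07 to 1.33) for Lcn2 alone and 1.61-fold (1.37 to 1.88) for both markers over neither. Median depths of these groups were 2834, 3162, 2543 and 3025 UMIs.

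**Figure D3:**
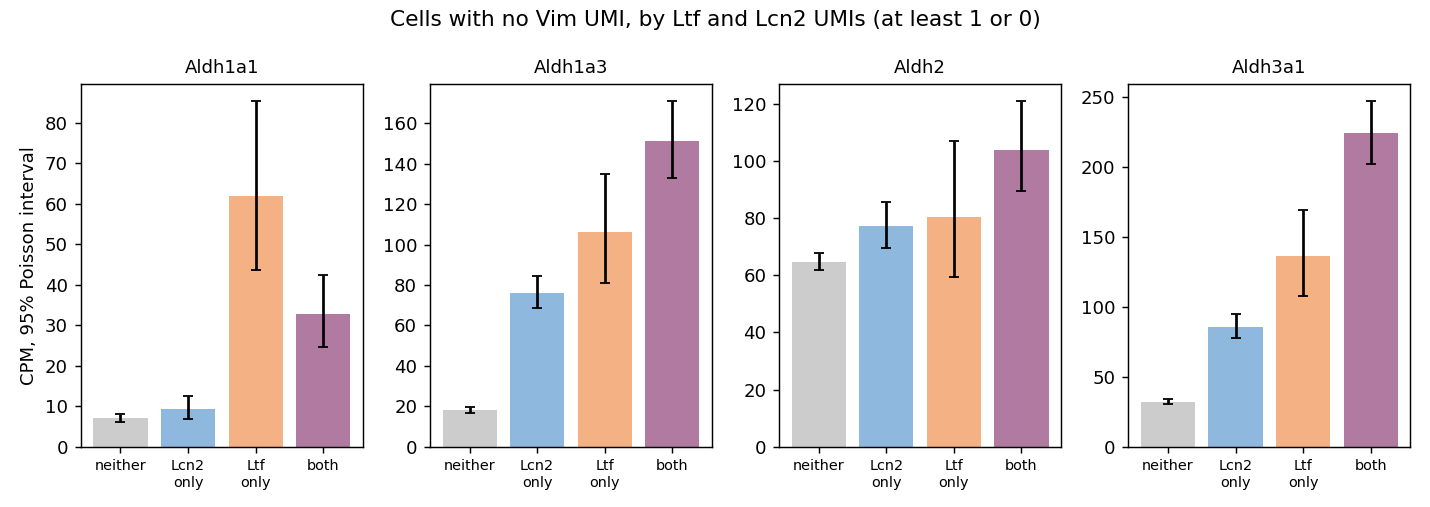
The 12975 cells without a Vim UMI, split by whether Ltf and Lcn2 UMIs were present. Bars are CPM from 0 with 95% Poisson intervals, each enzyme on its own y axis. For Aldh1a1 the tallest bar is Ltf alone (62.0 CPM) and Lcn2 alone (9.40 CPM) is near neither (7.11 CPM), while for Aldh1a3, Aldh2 and Aldh3a1 the tallest bar is both markers.

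Of the 4 enzymes, 1 had an entry in the RefSeq promoter table used here (GRCm38.p6), Aldh1a1 with 2 start sites. The 250 bases before each start are shown because Aldh1a1 was the enzyme that went with Ltf rather than Lcn2, and the windows of Ltf and Lcn2 are set beside it. Letters in capitals match 1 of 5 motifs sought on both strands: TTGCNNAA (C/EBP type), TGANTCA (AP-1 type), TGACNNNGC (the core of antioxidant response elements), ATGCAAAT (octamer) and ATAAAA (a core promoter type). None of these spellings contains another.
Aldh1a1, chr19:20492333-20492582, plus strand: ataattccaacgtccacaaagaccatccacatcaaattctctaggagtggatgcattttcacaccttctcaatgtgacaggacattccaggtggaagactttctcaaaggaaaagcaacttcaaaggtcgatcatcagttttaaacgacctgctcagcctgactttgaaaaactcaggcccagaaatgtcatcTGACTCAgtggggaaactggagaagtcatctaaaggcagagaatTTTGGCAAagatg
Aldh1a1, chr19:20601718-20601967, plus strand: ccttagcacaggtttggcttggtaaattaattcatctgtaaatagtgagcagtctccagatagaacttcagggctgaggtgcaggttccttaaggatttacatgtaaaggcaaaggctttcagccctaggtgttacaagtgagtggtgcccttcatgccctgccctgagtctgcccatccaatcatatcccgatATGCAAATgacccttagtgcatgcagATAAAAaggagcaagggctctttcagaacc
Ltf, chr9:111019042-111019291, plus strand: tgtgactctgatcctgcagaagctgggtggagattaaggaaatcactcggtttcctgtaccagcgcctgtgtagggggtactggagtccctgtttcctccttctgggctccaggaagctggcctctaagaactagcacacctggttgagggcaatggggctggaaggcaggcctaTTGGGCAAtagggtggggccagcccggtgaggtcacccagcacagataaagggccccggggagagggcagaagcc
Lcn2, chr2:32387740-32387989, minus strand: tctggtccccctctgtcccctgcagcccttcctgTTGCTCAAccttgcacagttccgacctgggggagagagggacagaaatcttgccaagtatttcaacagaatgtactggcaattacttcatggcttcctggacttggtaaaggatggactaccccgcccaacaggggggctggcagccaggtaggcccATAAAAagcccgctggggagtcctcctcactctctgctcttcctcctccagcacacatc

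The C/EBP-type letters were found in the first Aldh1a1 window and in those of Ltf and Lcn2, and in 9.56% of all 32851 promoter windows of the same length. The AP-1-type letters were in the first Aldh1a1 window (6.75% of all windows), and the octamer (1.60%) was in the second. The core promoter letters (17.0%) were in the second Aldh1a1 window and in that of Lcn2. The antioxidant-type core, held by 10.2% of windows, was in none of the 4. These are letter matches only, and counts of transcript 3′ ends do not show which start was used.

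Among Ltf-high cells, Aldh1a1 was the enzyme that differed most with Krt5. The 287 Ltf-high cells with at least 2 Krt5 UMIs held 56 Aldh1a1 UMIs, or 59.7 CPM (45.1 to 77.5). The 149 Ltf-high cells with fewer held 4, or 10.2 CPM (2.77 to 26.0), so the ratio was 5.87 (2.17 to 22.3). Aldh1a3 was at 184 and 175 CPM in these 2 groups, a ratio of 1.05 (0.791 to 1.41), and Aldh2 at 111 and 102 CPM, a ratio of 1.09 (0.751 to 1.61). Aldh3a1 lay between, at 252 and 155 CPM and a ratio of 1.63 (1.23 to 2.20). When Ltf-high cells were required to have no Krt5 or Vim UMI at all, 61 cells remained, and the Aldh1a1 ratio of Ltf-high to Krt5-high cells was 0.652 (0.0164 to 3.68). This value rests on 1 Aldh1a1 UMI in the Ltf-high cells. The higher Aldh1a1 level of Ltf-high cells was therefore measured in those that also carried Krt5.

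Levels differed with Krt5 also in cells without Ltf and Lcn2. Among cells with 0 UMIs of Ltf, Lcn2 and Vim, Aldh3a1 was at 17.0 CPM (14.0 to 20.3) in the 2993 cells without Krt5, 24.9 CPM at 1 to 2 Krt5 UMIs, 44.2 CPM at 3 to 9 and 142 CPM (112 to 179) in the 108 cells with 10 or more. The ratio between the end bins was 8.38 (6.18 to 11.3). Aldh1a1 was at 6.04, 4.39, 9.12 and 40.4 CPM over these bins, a ratio of 6.68 (3.76 to 11.5) from end to end, with the higher levels in the last 2 bins. Aldh1a3 was at 13.7, 13.9, 23.6 and 51.9 CPM, a ratio of 3.80 (2.38 to 5.88), and for Aldh2 the ratio was 0.704 (0.446 to 1.06). Cells with more Krt5 UMIs were deeper, with medians of 2092, 2745, 3400 and 4619 UMIs over the bins. Within Krt5-high cells, those at or above the class median depth were 1.18-fold (0.882 to 1.58) above the shallower ones for Aldh1a1, 1.23-fold (1.04 to 1.46) for Aldh1a3 and 1.34-fold (1.18 to 1.53) for Aldh3a1, and at 0.804 (0.722 to 0.895) of them for Aldh2.

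The enzymes differed in how unevenly their UMIs fell on cells. Aldh2 was spread almost as evenly as counting alone gives, with a variance-to-mean ratio of 1.08 and at most 5 UMIs in a cell. Aldh1a3 had a ratio of 4.39, and 94 cells with at least 3 UMIs held 39.1% of all its UMIs. Aldh3a1 had a ratio of 3.26, with 35.1% of its UMIs in 152 such cells, and Aldh1a1 1.43, with 10.7% in 11 cells. After thinning to 1500 UMIs the ratios were 1.01 for Aldh2, 2.27 for Aldh1a3, 1.61 for Aldh3a1 and 1.23 for Aldh1a1, in the same order. For unevenly spread counts this ratio also depends on the mean, which thinning does not make equal between genes. Before thinning the means were 0.0250 UMIs per cell for Aldh1a1, 0.0874 for Aldh1a3, 0.130 for Aldh3a1 and 0.205 for Aldh2. The lower ratio of Aldh1a1 therefore does not show that it was spread more evenly than Aldh1a3 or Aldh3a1.

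The richest cells were not always Ltf-high. The cell with the most Aldh1a3 had 28 of its 3512 UMIs from this gene, with 1 Lcn2 UMI and none of Ltf, Krt5 or Vim. The next had 26 Aldh1a3 UMIs with 10 of Lcn2 and 3 of Krt5. Neither held a UMI of the 3 other enzymes. The richest Aldh3a1 cell had 36 of 5195 UMIs from Aldh3a1, with 4 Krt5 UMIs and none of Ltf, Lcn2 or Vim. The richest Aldh1a1 cell had 7 UMIs of it beside 4 of Aldh1a3, 3 of Aldh3a1 and 9 of Krt5, without Ltf or Lcn2. These cells were chosen for their counts and describe the extremes.

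**Figure D4:**
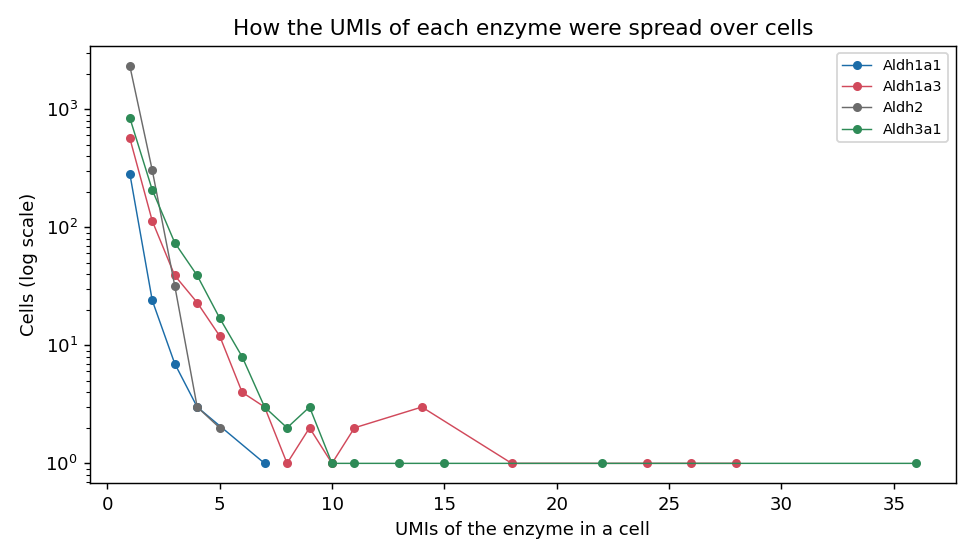
Number of cells (log scale) with each number of UMIs of an enzyme. Aldh2 falls off steeply and ends at 5 UMIs, Aldh1a1 ends at 7, and Aldh1a3 and Aldh3a1 have long tails that reach 28 and 36 UMIs in a single cell.

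Seen from the holders, Krt5 was the most common marker and Vim the rarest for the 3 class-dependent enzymes. Of the 320 cells with Aldh1a1, 84.7% (80.3% to 88.5%) had a Krt5 UMI, against 65.5% of all kept cells. Ltf was present in 22.5% of them against 5.18% of all cells, Lcn2 in 28.1% against 13.7%, and Vim in 3.12% against 13.1%. Of the 776 cells with Aldh1a3, 80.5% had Krt5, 39.7% Lcn2, 22.3% Ltf and 5.03% Vim. Of the 1204 cells with Aldh3a1, 84.1% had Krt5, 39.0% Lcn2, 21.9% Ltf and 3.41% Vim. Holders of Aldh2 were close to all cells, with 68.2% Krt5, 18.1% Lcn2, 7.19% Ltf and 14.3% Vim. Of the UMIs themselves, 59.5% of all Aldh1a1 UMIs and 59.0% of Aldh3a1 UMIs lay in Krt5-high cells, which held 48.2% of all UMIs. The share of Aldh1a3 UMIs in these cells was only slightly above that of all UMIs, and the share of Aldh2 UMIs was 45.8%. Ltf-high cells held 16.1% of Aldh1a1, 18.5% of Aldh1a3, 15.4% of Aldh3a1 and 4.72% of Aldh2 UMIs, beside 2.93% of all UMIs.

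Among Krt5-high cells, those with a UMI of Aldh1a1, Aldh1a3 or Aldh3a1 had more of the other two, and the differences for Aldh2 were smaller. The 188 cells with Aldh1a1 had Aldh3a1 at 259 CPM against 45.3 CPM in the 6259 without, a ratio of 5.72 (4.86 to 6.70). Their Aldh1a3 was at 152 against 25.6 CPM, a ratio of 5.93 (4.78 to 7.29). Both were called, as were 0.984% of genes in that direction and 0.771% in the other. Between Aldh1a3 and Aldh3a1 the ratio was smaller, with Aldh3a1 3.28-fold (2.82 to 3.79) higher in cells with Aldh1a3, where 0.913% of genes were called higher and 0.740% lower. Aldh2 was at 79.4 CPM in the Aldh1a1 holders against 63.3 CPM, a ratio of 1.25 (0.944 to 1.63). Cells with Aldh2 had 1.54-fold (1.35 to 1.75) more Aldh3a1 and 1.40-fold (1.02 to 1.90) more Aldh1a1, neither past the threshold. Cells that hold an enzyme were slightly deeper, with a median of 3561 against 3273 UMIs for Aldh1a1. Among Ltf-high cells the Aldh1a1 ratios were smaller: holders had 2.68-fold (2.04 to 3.48) more Aldh3a1 and 2.33-fold (1.70 to 3.15) more Aldh1a3. Aldh1a3 holders had 1.51-fold (1.19 to 1.92) more Aldh3a1, and Aldh3a1 holders 1.26-fold (0.968 to 1.63) more Aldh1a3. In Ltf-high cells the interval for Aldh2 beside each of the other 3 included 1, with ratios of 0.799 to 1.59.

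Division, mitochondrial share and secretory genes moved with the classes, and their part in the results was not tested. Cells with at least 5 UMIs of 8 cycling markers made up 6.19% of Ltf-high, 14.2% of Krt5-high and 4.07% of Vim-high cells. Within Krt5-high cells all 4 enzymes were lower in the 916 cells with at least 5 cycling UMIs than in the 4554 with none, with Aldh2 at 39.8 against 71.3 CPM. For Aldh2 the ratio of non-cycling to cycling cells was 1.79 (1.51 to 2.13), for Aldh1a3 1.75 (1.36 to 2.28), for Aldh3a1 1.60 (1.34 to 1.92) and for Aldh1a1 1.57 (1.06 to 2.41). Among cells without a cycling UMI, the Ltf-high over Krt5-high ratios were 3.73 for Aldh1a1, 6.54 for Aldh1a3, 3.89 for Aldh3a1 and 1.62 for Aldh2. The median mitochondrial share was 4.0% in Ltf-high and 2.61% in Krt5-high cells, and Krt5-high cells above their median share had more of each enzyme, 1.84-fold (1.39 to 2.45) for Aldh1a1. Below and above the class medians of mitochondrial share the Ltf-high over Krt5-high ratio was 5.97 and 3.62 for Aldh1a1, 8.44 and 4.36 for Aldh1a3, and 4.55 and 4.13 for Aldh3a1. Of the 9 secretory genes with enough UMIs, 7 were called higher in Ltf-high than in Krt5-high cells and 1, Wfdc18, lower. All genes tested gave 3.22% and 2.35%. Wfdc18 was at 1654 against 8319.8 CPM, and the whole secretory list summed to 8889 against 12259.9 CPM.

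Most other aldehyde dehydrogenases were not called. Of 16 listed genes, 11 had enough UMIs. Of these, 1 was called higher in Ltf-high than in Krt5-high cells, where 3.22% of all genes tested were. This was Aldh3b1, at 21.8 against 3.61 CPM, a ratio of 6.03 (3.80 to 9.34), and it was at 5.49 CPM in Vim-high cells. None was called between Krt5-high and Vim-high cells, where 7.32% of all genes were called higher in Krt5-high and 7.72% in Vim-high cells. The median log2 ratio of the 11 was 0.34 between Ltf-high and Krt5-high cells, where that of all genes was -0.04. The family members next to Aldh3a1 and Aldh1a1 were not called: Aldh3a2, 4995 bases from Aldh3a1, was at 7.51 against 10.4 CPM (ratio 0.721, 0.341 to 1.35), and Aldh1a7 at 6.0 against 3.29 CPM (ratio 1.83, 0.760 to 3.80). Aldh1a7, with no UMI in Vim-high cells, was nonetheless called in Krt5-high cells that held Aldh1a1, at 15.3 against 2.88 CPM, a ratio of 5.32 (2.53 to 10.2) from 11 UMIs. The 2 genes are the similar pair shown above. The last 500 bases of Aldh1a1 shared no run of 31 bases with another gene. Whether reads of 1 gene were counted for the other was not tested.

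Of 14 measured retinoid genes around the ALDH1A step, 1 was called higher in Ltf-high than in Krt5-high cells, against 3.22% of all genes. This was Rdh10, the retinol dehydrogenase that makes retinaldehyde, at 280 against 123 CPM, a ratio of 2.28 (2.04 to 2.54). Between Krt5-high and Vim-high cells 2 of 14 were called, both higher in Krt5-high cells, where 7.32% of all genes were. Crabp2, which carries retinoic acid, was 1 of them, 2.63-fold (2.35 to 2.94) higher in Krt5-high cells. Lrat, which stores retinol as esters, Cyp26a1, which degrades retinoic acid, and the receptor gene Rxrg had no UMI in Ltf-high or Krt5-high cells. The list's median log2 ratio was 0.31 for Ltf-high over Krt5-high cells and 0.43 for Krt5-high over Vim-high cells, against -0.04 and 0.05 over all genes.

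Among 12 measured genes of alcohol and aldehyde reduction, 3 were called higher in Ltf-high than in Krt5-high cells, against 3.22% of all genes. Akr1c18, a hydroxysteroid dehydrogenase, was at 21.8 against 1.83 CPM, a ratio of 11.9 (7.13 to 19.7). The carbonyl reductases Cbr2 and Cbr3 had ratios of 2.14 (2.07 to 2.21) and 2.05 (1.59 to 2.61). Cbr2 and the aldose reductase relative Akr1b8 were higher in Krt5-high than in Vim-high cells, 12.6-fold and 2.18-fold. Of 14 genes of the oxidative stress response, 5 were called higher in Ltf-high than in Krt5-high cells and none lower. Over all genes tested these shares were 3.22% and 2.35%. Gsto1, a glutathione transferase, was at 5018 against 789 CPM, a ratio of 6.36 (6.18 to 6.54). The cystine carrier gene Slc7a11 had a ratio of 2.98, Gclc, which starts glutathione synthesis, 2.97, the transferase Gsta4 2.77 and the transferase Gstm1, named after its value was seen, 2.64. The medians of the log2 ratio were 0.61 for the reduction list and 0.44 for the stress list. Between Krt5-high and Vim-high cells 4 stress genes were called higher, Gsto1 6.87-fold, Gsta4 6.24-fold, Slc7a11 5.91-fold and G6pdx 2.75-fold, and Gstm1 was lower, at 17.6 against 39.0 CPM. In that comparison 7.32% of all genes were called higher in Krt5-high cells and 7.72% lower.

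**Figure D5:**
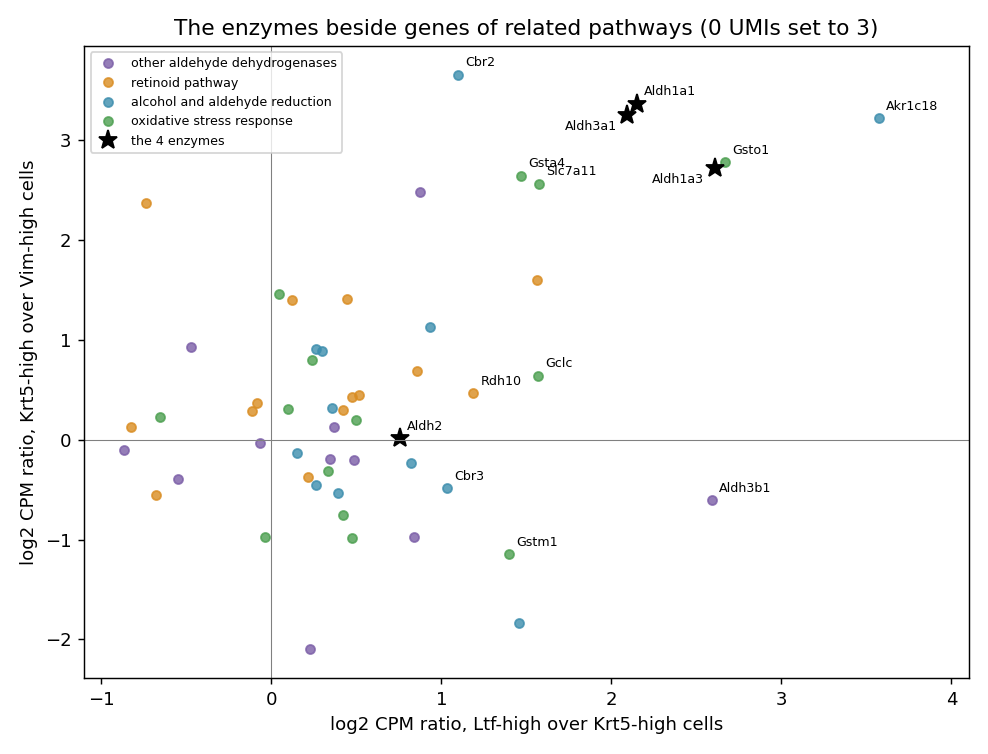
Each point is a gene with enough UMIs in both comparisons, placed by its log2 CPM ratio of Ltf-high over Krt5-high cells (x axis) and of Krt5-high over Vim-high cells (y axis), coloured by list, with the 4 enzymes as black stars. Genes at 0 UMIs in a class were set to 3. Names are given for the enzymes and for genes called between Ltf-high and Krt5-high cells. Aldh1a1, Aldh1a3 and Aldh3a1 lie in the upper right with Gsto1 and Akr1c18, and Aldh2 lies close to 0 on the y axis.

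Of 11 genes used as marks of epithelial precursors that were measured, 2 were called higher in Ltf-high than in Krt5-high cells: Prom1, a surface glycoprotein, at 15.8 against 0.411 CPM, a ratio of 38.4 (16.8 to 95.1) from 21 and 9 UMIs, and the basal keratin Krt15 at 35.3 against 2.19 CPM, a ratio of 16.1 (10.5 to 24.6). The other 9 were not called, and the list's median log2 ratio was -0.18. Over all genes, 3.22% were called higher in Ltf-high cells and 2.35% lower. Between Krt5-high and Vim-high cells 6 of 10 were called higher (7.32% of all genes), led by Trp63 (26.1-fold), Klf4 (5.72-fold), Ly6a (4.70-fold) and Sox9 (4.23-fold). Within Krt5-high cells none of 10 was called between cells with and without Aldh1a1, Aldh1a3, Aldh2 or Aldh3a1; at most 0.984% of all genes were called higher there, so this count is no result about the holders. The name "epithelial" fitted the class levels of Aldh1a1, Aldh1a3 and Aldh3a1 and not those of Aldh2.

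Within Krt5-high cells, genes of the stress list and several keratins differed with the enzymes. Cells with Aldh3a1 had 5 of 14 stress genes called higher, named here after their values were seen: Nqo1, Gclc, Gsta4, Gstm1 and Gsto1, the last at 1892 against 635 CPM, where 0.811% of all genes were called higher and 0.701% lower. Cells with Aldh1a3 had 3, Gclc, Gsta4 and Gsto1 (2602 against 649 CPM), and cells with Aldh1a1 had Gsto1 alone (2555 against 729 CPM). Cell type markers differed too, and their part in the stress gene differences was not tested. Krt19, a simple epithelial keratin, was called higher with Aldh1a1 (3.03-fold), Aldh1a3 (3.93-fold) and Aldh3a1 (3.84-fold). Krt13, a keratin of differentiated squamous cells, was called higher with the same 3 enzymes, by 3.97-fold, 4.72-fold and 4.48-fold, and Krt6a with Aldh1a1 (2.18-fold) and Aldh1a3 (2.15-fold). Krt8 and Krt18 were called higher with Aldh1a3, and the secretory gene Slpi with Aldh1a3 and Aldh3a1. Krt7 and the mesenchymal marker Fn1 were called lower with Aldh1a1 and Aldh3a1, and Wfdc18 lower with Aldh3a1. These markers were named after their values were seen. In cells with Aldh2 no gene of any list was called, and over all 12704 genes 1 was called higher (0.00787%) and 3 lower (0.0236%). The genes with the highest ratios, picked after their values were seen, included Gabrp, a subunit of the GABA-A receptor, for all 3 class-dependent enzymes: 5.55-fold for Aldh1a1, 8.44-fold for Aldh1a3 and 6.25-fold for Aldh3a1. Il33, an alarmin cytokine, was 5.99-fold higher with Aldh1a1 and 8.26-fold with Aldh3a1. Tslp, an epithelial cytokine, and Arg1, an arginase, were 6.58-fold and 10.00-fold higher with Aldh1a3. Cyp2f2, a cytochrome P450 of airway secretory cells, was 11.6-fold higher with Aldh3a1.

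Likeness was measured as Pearson's r of log2(CPM + 1) over 16 groups of at least 50 cells, made by all combinations of 3 UMI bins (0, 1 to 4, 5 or more) of the 4 markers. The groups come from 1 matrix, share its free RNA and differ in depth, so the values are descriptions. Aldh1a3 and Aldh3a1 were most alike (r = 0.93), then Aldh1a1 and Aldh3a1 (0.84), and Aldh1a1 and Aldh2 least (0.21). Aldh1a1 had r = 0.79 with Ltf, 0.73 with Krt5 and 0.20 with Lcn2, while Aldh1a3 had 0.57, 0.47 and 0.75. The same markers formed the groups, and every group with Ltf also had Krt5 and no Vim UMI. These marker values are therefore not separate from each other, and Aldh1a1 had only 1 UMI in 1 of the groups. Among 8774 genes, those most like Aldh1a1 were Adam28, a metalloprotease (r = 0.91), Ceacam1, an adhesion molecule, Hspa1b, a heat shock protein, Phlda1 and AA986860. Those most like Aldh1a3 were Cyb5a, cytochrome b5 (0.98), Tnfaip2, Gabrp, Ezr, which encodes ezrin, and Pglyrp1, a peptidoglycan-binding protein. Aldh3a1 was most like Lgals3, which encodes galectin-3 (0.98), Emp2, Ezr, Gsto1 and Gabrp. Aldh2 had lower values, led by Dnaja1, a co-chaperone (0.86), Slc4a4, a bicarbonate transporter, Tnfsf9, Coq9 and Gpcpd1. The r values of these genes over single cells, most of them without a UMI of the enzyme, were far lower. They ran from 0.01, as for AA986860 with Aldh1a1, to 0.33 for Gabrp with Aldh1a3 and Aldh3a1. Cyb5a, at 0.98 with Aldh1a3 over the groups, had 0.05 over cells. Over these groups Aldh1a1 ranged from 1.17 to 86.5 CPM, Aldh1a3 from 4.11 to 172, Aldh2 from 51.8 to 118 and Aldh3a1 from 4.73 to 248.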

How the data were processed

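PC cells from mouse went through droplet-based sequencing of RNA from single cells. The deposited matrix held raw UMI counts per gene and barcode, and the file headers name cellranger 8.0.1; the submitters' processing notes name mm10 and Scanpy 1.8.2. It was mapped to no single library and used as 1 pooled sample. Barcodes were kept from 500 genes and 1000 UMIs upward if mitochondrial UMIs made up no more than 20%. No doublet caller was run; leaving out the 10% of cells with the most UMIs was an alternative. Counts were summed over cells with numpy 2.4.6 and intervals came from scipy 1.17.1; ratios have exact conditional binomial intervals. In a class with 0 UMIs of a gene, 3 were used for medians of log2 ratios and for plots. Calls were tried on simulated Poisson counts, which lack the uneven spread over cells seen here, so no conclusion is drawn from that trial. For shares at equal depth, cells were thinned to 1500 UMIs. The barcode and scar data were not analysed here. Of 32287 feature IDs, 32158 were found in GENCODE M21.

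Named genes are the 4 enzymes, the 4 markers, the 5 genes most like each enzyme among those of at least 20 CPM in some group, and up to 4 called genes per list and direction between Ltf-high and Krt5-high or Krt5-high and Vim-high cells. The enzymes, markers and lists were chosen with earlier results of these data known. Some genes of the lists are not reported here by name.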

Additional observations from a re-analysis of the deposited data

How the results depend on the processing

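Of the class ratios of the 4 enzymes recomputed under other settings, 126 kept their side of the call. Among these, the uncalled Aldh2 ratio of Krt5-high to Vim-high cells went from 1.01 to 0.995 in cells without an Lcn2 UMI. The 6 that changed sides of the call all concern Aldh1a1, the gene with the fewest UMIs. With the other class markers at 0 UMIs, which leaves 61 Ltf-high cells, its ratio was 0.652 for Ltf-high over Krt5-high, 5.81 for Ltf-high over Vim-high and 8.92 for Krt5-high over Vim-high cells. Its Krt5-high over Vim-high ratio was 6.33 at a class threshold of 1 UMI, and, in the alternatives added after seeing the data, 9.18 in cells without an Lcn2 UMI and 9.98 without the cell richest in each enzyme. The cause was not tested.

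The count of genes called between Ltf-high and Vim-high cells was 2229, and 1231 with the other markers at 0, 1453 after thinning to 1500 UMIs and 1390 in cells without Lcn2. Over all kept cells, the level of Aldh3a1 was 45.4 CPM with at least 1000 genes and 2000 UMIs and 40.1 CPM without the 10% deepest cells, where Aldh2 was at 70.2. Without GFP, Scar and mitochondrial genes in the denominator Aldh1a3, Aldh2 and Aldh3a1 were at 30.5, 71.4 and 45.4 CPM, and thinned Aldh1a3 was at 27.1. In cells without Lcn2, Aldh1a1, Aldh1a3, Aldh2 and Aldh3a1 were at 7.02, 17.4, 64.3 and 29.5 CPM. No paired analysis was possible because the 3 libraries share replicate number 1 only and the matrix names none of them.

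With 1 sample, variation between cultures is unknown. Aldh1a1 had 60 UMIs in Ltf-high and 5 in Vim-high cells, which limits every statement on it.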
